A study of Mus musculus with 6 samples.

Results

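The cytosolic ribosomal protein genes encode the proteins of the large and small subunits of the ribosomes that translate nuclear messages. They were taken from the deposited gene table as the protein-coding rows whose symbol is Rpl, Rps or Rplp followed by a number and, in some, letters, together with Rpsa, leaving out the Rps6k kinases. This gave 82 of 46983 features, 50 of the large and 32 of the small subunit, lying on 19 chromosomes. RNA was sequenced from oligodendrocytes, which wrap axons of the brain in myelin, after direct isolation from FvB/C57BL6 hybrid mice. The 3 control libraries are labelled WT. The 3 Qk-KO libraries came from Plp-CreERT2;QKLoxP/LoxP mice, in which a tamoxifen-inducible Cre under the Plp promoter, active in oligodendrocytes and their lineage, recombines floxed alleles of the RNA-binding protein gene Qk. Mice of both groups were 8 weeks old at tamoxifen treatment, 4 days before the brains were collected. The labels leave unsaid whether the controls carry the Cre or a floxed allele. The labels do not state that the libraries of a group are different mice, and the tests therefore weigh a difference against the spread between libraries, which may be technical.

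Ribosomal proteins are made in near-equal amounts and assembled on ribosomal RNA in the nucleolus. Most of their messages begin with a 5′ terminal oligopyrimidine (TOP) tract, a start of C and T bases through which the kinase complex mTORC1 and the protein Larp1 control their translation and stability together. In oligodendrocytes the demand on translation is high while myelin is made and maintained.

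Values are the deposited log2 values per gene and library, which are scaled between libraries. A change is the Qk-KO mean minus the WT mean, with a standard error (SE) from limma. A gene was called when its Benjamini-Hochberg adjusted p over all 15153 features tested was under 0.05. Only features whose mean normalized count reached 20 entered the test, which kept 79 of the 82 genes. The libraries were of unlike kinds. Features of ribosomal RNA took 59.8% to 64.8% of the signal in the 3 WT libraries and Qk-KO replicate 1, but 2.23% and 1.88% in Qk-KO replicates 2 and 3. Estimated reads outside these features numbered 8700000 to 13100000 in the former and 77100000 and 70000000 in the latter. For Qk itself the WT log2 values were 15.41, 15.67 and 15.31 and the Qk-KO values 16.10, 15.62 and 15.30, each in the order of the replicates. Its groups overlapped, and as a value of the whole gene it says nothing about a deletion of part of it. Because the libraries of the second kind are both Qk-KO, the genotype and the kind of library cannot be told apart in them, and each Qk-KO library is given apart below.

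The ribosomal protein genes stood near the control level in Qk-KO replicate 1, above it in replicate 2 and higher again in replicate 3. Their median difference from the WT mean was 0.10, 0.51 and 1.04 log2 units in Qk-KO replicates 1, 2 and 3, against 0.02, 0.03 and 0.04 over all features tested. In the WT libraries it was -0.02, 0.00 and 0.01. In Qk-KO replicate 3, 78 of the 79 genes had the highest value of the 6 libraries, against 23.1% of all features. Replicate 2 lay above all WT libraries in 78 genes and below all of them in 0, against 40.0% and 35.8% of all features, and replicate 3 above in 79 and below in 0, against 41.2% and 36.4%. The exception to replicate 3 being highest was Rps27l, which was highest in Qk-KO replicate 2. The order replicate 1 below 2 below 3 held in 75 of 79 genes, against 27.0% of all features.

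**Figure D1:**
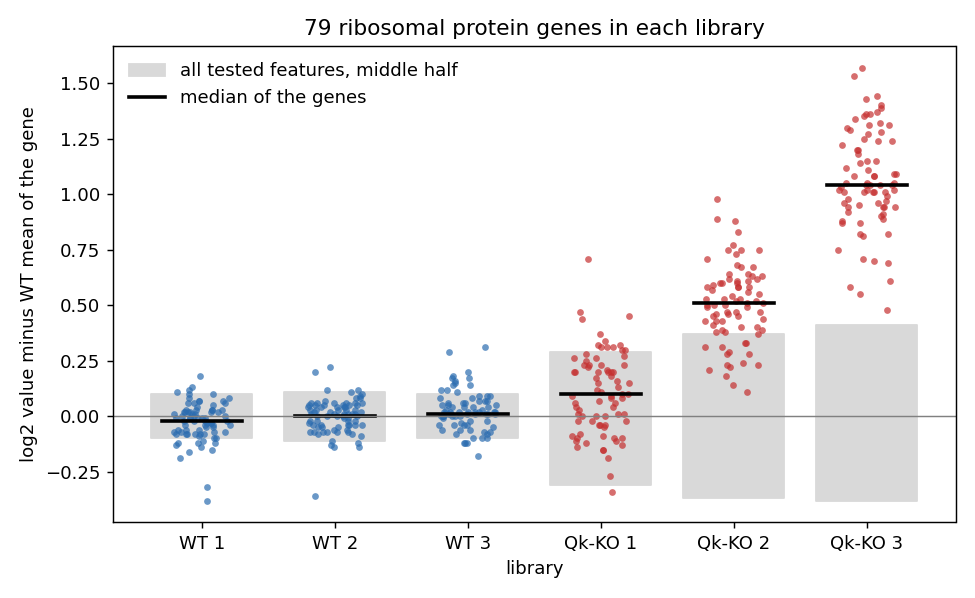
Log2 value minus the WT mean of the same gene (vertical axis) for the 79 tested ribosomal protein genes in each of the 6 libraries (horizontal axis), 1 point per gene, WT blue and Qk-KO red, with the median as a black line and the interquartile range of all 15153 features tested in grey. The medians are 0.10, 0.51 and 1.04 in Qk-KO replicates 1, 2 and 3, and the lowest of the 79 genes lies 0.48 above the WT mean in replicate 3.

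Between the groups, 14 of 79 genes were called higher in Qk-KO and 0 lower. The 14 are 17.7% of the genes tested, close to the 13.8% of all features that were called higher (28.6% were called in either direction). All 79 changes were positive, against 52.8% of all features, with a median of 0.54 and a range from 0.19 to 1.04. The groups did not overlap in 42 of the 79 genes, all higher in Qk-KO, against 24.5% of all features apart in that direction and 21.8% apart with Qk-KO lower. With library size alone as the scaling, the median change of all features moved from 0.03 to 1.09. Under that scaling 65 of 79 genes were called higher and 0 lower, against 15.7% and 0.429% of all features. The Qk-KO libraries differed widely among themselves: the median standard deviation (SD) of a gene was 0.49 over the Qk-KO libraries and 0.07 over the WT libraries, against 0.19 and 0.16 over all features. By the authors' deposited table, 45 of the 79 genes were called higher and 0 lower, where 27.9% of the features with an adjusted p were called, 13.7% as higher and 14.2% as lower. The count rested on single libraries. It was 71 without Qk-KO replicate 1, against 18.7% of all features called higher in the same fit. It was 9 (11.4%) without Qk-KO replicate 3, against the same share of all features, 11.4%, and 1 without Qk-KO replicate 2, against 6.13%. Without WT replicate 1, 2 or 3 it was 2 each time, against 7.22%, 10.2% and 6.92% of all features. The sample numbers in the labels fall into 2 series, each holding libraries of both groups, and with the series as a term 46 of 79 genes were called higher, against 13.8% of all features.

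Within the libraries rich in ribosomal RNA, Qk-KO replicate 1 can be set against the 3 WT libraries, with the lone library assumed to vary like them. There 1 of 79 genes was called higher, Rpsa, and 0 lower, against 6.17% of all features higher and 9.37% lower. Of the 79 genes, 43 lay above all WT libraries, 14 below all of them and the rest between, against 37.4% of all features above and 33.9% below. The largest difference was 0.71, for Rpsa, and 51 of 79 were within 0.2 log2 units of the WT mean. A fit with the kind of library as a term beside genotype gives the same estimate for genotype, since it too rests on Qk-KO replicate 1, and is no second result (1 gene called, against 5.76% of all features higher and 9.14% lower).

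Between Qk-KO replicates 2 and 3, which are of the same genotype and the same kind of library, the genes also differed. The sample numbers of replicates 2 and 3 fall into different series, which cannot be told apart from other differences between them. In replicate 3, 78 of 79 were higher, against 47.3% of all features. The median difference was 0.57 log2 units, with a range from -0.06 to 0.95, against -0.01 over all features. Between replicates 1 and 2 the median difference was 0.38, and 76 of 79 genes were higher in replicate 2, against 54.3% of all features. These are differences between single libraries and have no replicate check.

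Summed over all 82 genes, ribosomal protein signal was 0.551%, 0.529% and 0.579% of the signal outside ribosomal RNA in the WT libraries. In the Qk-KO libraries, in the order of the replicates, it was 0.575%, 0.869% and 1.28%. Qk-KO replicate 1 lay inside the WT range and the other two lay above it. The means were 0.553% ± 0.0252 in WT and 0.909% ± 0.355 in Qk-KO (SD, n = 3), a ratio of 1.64, with p = 0.2 in a two-sided exact permutation test, whose smallest possible p is 0.1. Sums of the large and the small subunit moved alike, from 0.318% to 0.351% and from 0.211% to 0.229% in WT to 0.760% and 0.521% in Qk-KO replicate 3.

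The small subunit and large subunit genes had similar changes. Of 32 small subunit genes 4 rose (12.5%), with a median change of 0.58, and of 47 large subunit genes tested 10 rose (21.3%), with a median of 0.54. Of all features 13.8% were called higher, so the small subunit count is at the background share. In Qk-KO replicates 1, 2 and 3 the medians were 0.06, 0.54 and 1.09 for the small and 0.12, 0.49 and 1.02 for the large subunit.

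Among the small subunit genes, Rpsa had the largest change. Rpsa (ENSMUSG00000032518.5, chromosome 9, 120127689 to 120132369, plus strand, mm10) encodes a protein of the small subunit also known as the laminin receptor. The WT libraries read 11.66, 11.69 and 11.70 on the log2 scale and the Qk-KO libraries 12.39, 12.66 and 13.11, here as below in the order of the replicates. Every Qk-KO library lay above every WT library. Rpsa rose by 1.04 ± 0.18 (SE, 3 libraries a group; adjusted p from limma = 0.00456), or 2.05-fold on the back-transformed scale. Rpsa was the one gene of the 79 called in Qk-KO replicate 1 alone against WT (0.71, adjusted p = 0.0106), and it was called under every alternative setting tried.

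Rps3, whose protein lies at the entry of the messenger RNA channel and also acts in DNA repair, had values of 11.28, 11.24 and 11.36 in WT against 11.60, 12.17 and 12.60 in Qk-KO. It rose by 0.83 ± 0.23 (adjusted p = 0.0287). Rps6, the protein that S6 kinases phosphorylate downstream of mTORC1, had values of 11.06, 10.99 and 11.03 in WT against 11.40, 11.62 and 12.12 in Qk-KO. It rose by 0.69 ± 0.18 (adjusted p = 0.0231), with no overlap between the groups, as for Rps3. Rps27a, made as a fusion with ubiquitin, had values from 10.43 to 10.52 in WT against of 10.67, 10.98 and 11.46 in Qk-KO, and was not called (0.56 ± 0.19, adjusted p = 0.0592). Rps19, the gene most often mutated in Diamond-Blackfan anaemia, had values of 9.83, 9.86 and 10.02 in WT against 9.75, 10.40 and 11.04 in Qk-KO. Here Qk-KO replicate 1 was the lowest of all 6 libraries, and the gene was not called (0.49 ± 0.28, adjusted p = 0.221).

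Of the large subunit genes, Rpl10, required late in the assembly of the large subunit, had values of 10.57, 10.63 and 10.81 in WT against 11.14, 11.56 and 12.20 in Qk-KO. The groups lay apart, and the rise was 0.96 ± 0.24 (adjusted p = 0.0208). Rpl3, which lies near the site of peptide bond formation, had nearly equal WT values of 11.66, 11.67 and 11.68 against 12.01, 12.50 and 12.96 in Qk-KO, a rise of 0.82 ± 0.22 (adjusted p = 0.0256). Rpl26 and Rpl19 rose by 0.78 ± 0.24 and 0.77 ± 0.23 (adjusted p = 0.0426 and 0.0373). Rpl4, whose protein lines the exit tunnel and which had the highest mean normalized count of the 82 genes, 5350, rose by 0.59 ± 0.17 (adjusted p = 0.0343). Its values were 11.95, 12.06 and 12.08 in WT against 12.30, 12.61 and 12.95 in Qk-KO. The remaining large subunit genes called were Rpl6 (0.66), Rpl36a (0.65), Rpl14 (0.53) and Rpl24 (0.50), beside Rpl36al, given below. These 4 are named because they complete the 14 calls.

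Other large subunit genes picked for their roles were not called. Rpl5 and Rpl11, whose proteins bind the p53 regulator Mdm2 when assembly is disturbed, had changes of 0.48 ± 0.23 (adjusted p = 0.151) and 0.55 ± 0.20 (adjusted p = 0.0722). For Rpl11 the WT values of 10.45, 10.49 and 10.48 all lay below the Qk-KO values of 10.64, 10.94 and 11.49, whereas for Rpl5 Qk-KO replicate 1 (10.76) lay within the WT range of 10.60 to 10.90. Rpl7, among the 5 most abundant, had a change of 0.60 ± 0.21 (adjusted p = 0.0678). Rpl22, an RNA-binding protein of the large subunit, was among the genes that differed least, with values of 9.97, 9.95 and 10.05 in WT against 9.91, 10.20 and 10.57 in Qk-KO (0.23 ± 0.17, adjusted p = 0.324).

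The stalk of the large subunit, formed by the products of Rplp0, Rplp1 and Rplp2, recruits the elongation factors. None of the 3 genes was called by limma, while all 3 have an adjusted p under 0.05 in the authors' deposited table (0.00775, 0.0232 and 0.0209). With the series of sample numbers as a term, limma called all 3 (adjusted p = 0.0119, 0.0280 and 0.0251). Rplp0 had values of 11.26, 11.43 and 11.48 in WT against 11.64, 12.03 and 12.71 in Qk-KO (0.74 ± 0.25, adjusted p = 0.0573). Rplp1 had 10.48, 10.69 and 10.62 in WT against 10.64, 11.21 and 12.17 in Qk-KO (0.74 ± 0.33, adjusted p = 0.130). It lay within the WT range in Qk-KO replicate 1 and had the largest difference of all 79 genes in replicate 3, 1.56. Rplp2 had 10.09, 10.00 and 10.14 in WT against 10.39, 10.45 and 11.22 in Qk-KO (0.61 ± 0.22, adjusted p = 0.0666).

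**Figure D2:**
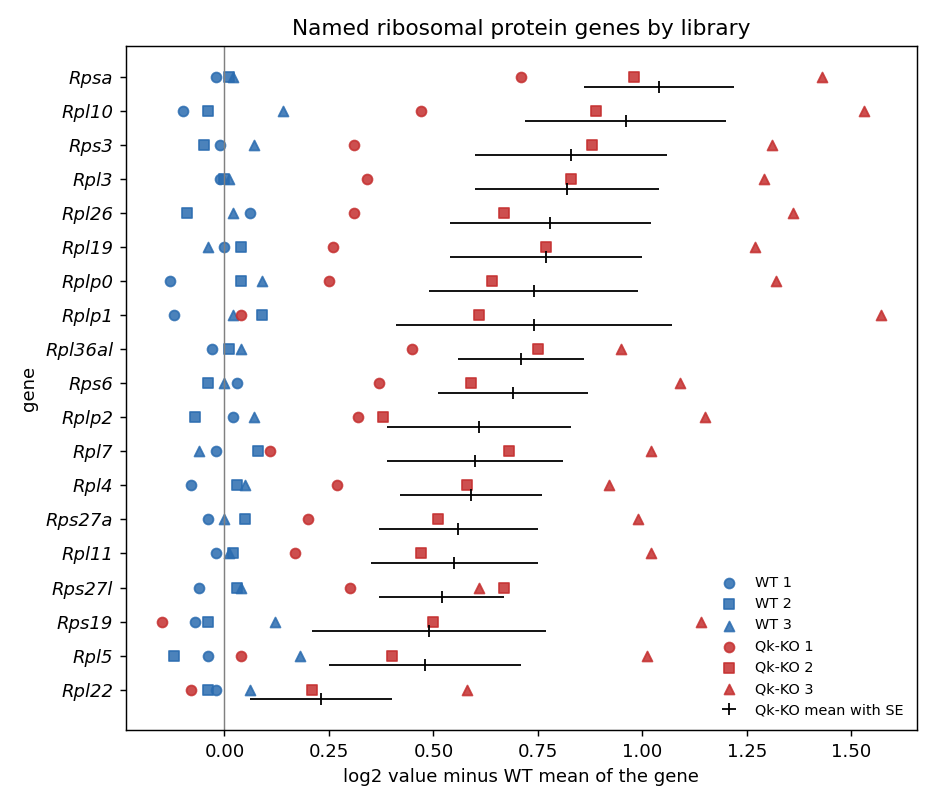
Log2 value minus the WT mean (horizontal axis) of the 19 tested ribosomal protein genes chosen by rule, 1 row per gene and 1 symbol per library. WT is blue and Qk-KO red, with circle, square and triangle for replicates 1, 2 and 3. Black marks give the Qk-KO mean with the SE of the change between the groups. Qk-KO replicate 3 is the rightmost point in every row but that of Rps27l, and Rps19 and Rpl22 have Qk-KO replicate 1 at the left of the WT points.

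Some ribosomal proteins have a second, divergent gene copy. Rps27l (ENSMUSG00000036781.13, chromosome 9, 66946086 to 66949516, mm10), a p53-inducible relative of Rps27, had values of 7.57, 7.66 and 7.67 in WT against 7.93, 8.30 and 8.24 in Qk-KO. It rose by 0.52 ± 0.15 (adjusted p = 0.0345) and did not follow the order of most of the other genes, since its replicate 2 stood above replicate 3. Its signal per kilobase of transcript, averaged over the 6 libraries, was 486 normalized counts, against 4710 for Rps27. Rpl36al (ENSMUSG00000049751.6, chromosome 12, 69182731 to 69184083, mm10), a relative of the X-linked Rpl36a, had values of 8.24, 8.28 and 8.31 in WT against 8.72, 9.02 and 9.22 in Qk-KO. It rose by 0.71 ± 0.15 (adjusted p = 0.0117), and its signal per kilobase was 781 normalized counts against 1250 for Rpl36a. Near-identical stretches in such pairs can share reads, so the split between them is uncertain. Rps27rt, a retrotransposed copy of Rps27, had 14.4 to 176 estimated reads per library. Its change in the deposited log2 values was the smallest of the 79 genes (0.19 ± 0.18, adjusted p = 0.442). These values understate differences of genes with few reads. In the authors' deposited table the log2 fold change of Rps27rt was 0.56, above the 0.32 of Rpl22. The muscle and germline relatives were nearly silent: the mean normalized count was 3.07 for Rpl39l and 0.16 for Rpl3l, and Rpl10l is listed at 0 in all 6 libraries. These 3 were not tested.

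Rps21 and Rpl41 lie outside the naming rule and were picked after their values were seen. Rps21 was lowest in Qk-KO replicate 1, with 9.68 against 9.87 to 10.04 in WT, and was not called (adjusted p = 0.299). It was above all WT libraries in Qk-KO replicates 2 and 3. Rpl41, the shortest ribosomal protein, had the widest WT spread, with values of 10.20, 9.78 and 10.45, and Qk-KO values of 10.58, 10.38 and 10.95 (0.49 ± 0.20, adjusted p = 0.105).

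The length of the transcript showed little relation to the size of the difference among the ribosomal protein genes. Over the 79 genes, whose annotated transcripts run from 345 to 5179 bases, Spearman's rho between length and difference from WT was 0.09, -0.04 and -0.03 in Qk-KO replicates 1, 2 and 3. These correlations are across genes, which share libraries and are not replicates. The longest annotated transcripts were those of Rps15a, Rps20 and Rpl18, of 5179, 3706 and 2989 bases. Whether these are the transcripts expressed was not tested, so the comparisons by length rest on annotated lengths. Genes with transcripts above the median of 833 bases and those at or below it had the same medians in replicates 2 (0.51 and 0.51) and 3 (1.04 and 1.04). Over all 15084 features with a length, rho was -0.03, -0.19 and -0.26. The 424 other protein-coding genes with transcripts from 345 to 833 bases had medians of 0.02, 0.24 and 0.36 in the 3 Qk-KO libraries, so short transcripts as a class also lay above the WT mean in replicates 2 and 3, by less than the ribosomal protein genes.

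The start sites of the genes are shown because the pyrimidine tract there is what the messages are known to share, and because the genes moved together. RefSeq promoters (GRCm38.p6) were found for 62 of the 82 genes, with 74 start sites. Windows of 30 bases were read 5′ to 3′ on the strand of the gene, 15 before the annotated start and 15 from it on. The capitals mark the longest run of C and T where it holds at least 8 bases. Rpl19 and Rps27l each have another start site without such a run, which is not shown. In called genes with such a run the windows read as follows.
Rps6, chr4:86857353-86857382, minus strand: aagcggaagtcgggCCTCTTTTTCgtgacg
Rpl14, chr9:120571502-120571531, plus strand: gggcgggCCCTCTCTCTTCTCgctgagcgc
Rpl4, chr9:64173372-64173401, plus strand: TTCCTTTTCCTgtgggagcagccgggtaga
Rps27l, chr9:66946071-66946100, plus strand: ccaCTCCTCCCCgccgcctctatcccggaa
Rpl19 at 1 of its start sites, chr11:98026909-98026938, plus strand: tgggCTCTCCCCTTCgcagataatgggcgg
In the 3 genes with the largest changes there was none in the window.
Rpsa, chr9:120127751-120127780, plus strand: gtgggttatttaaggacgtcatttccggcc
Rpl10, chrX:74270801-74270830, plus strand: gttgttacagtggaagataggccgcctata
Rps3, chr7:99483695-99483724, minus strand: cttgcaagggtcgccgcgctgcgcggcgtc
Of the 5 genes in the promoter table with the smallest changes in the deposited log2 values, none was called. Rpl28 and Rps15a held a run and Rps27rt, Rpl22 and Rps16 did not, so windows of both kinds occur at both ends of the range. 1 of each is shown.
Rpl28, chr7:4792950-4792979, plus strand: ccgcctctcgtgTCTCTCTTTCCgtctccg
Rps16, chr7:28350674-28350703, plus strand: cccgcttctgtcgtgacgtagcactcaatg

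A run of at least 8 C or T bases was found at 27 of the 74 start sites (36.5%), against 12% of all 32851 start sites in the table. The letters CCGGAAG, searched on both strands of the 300-base promoter, were found at 26 of 74 (35.1%), against 8.86% of all. Annotated starts can be off by several bases, so a window without a run does not show that the message lacks one. The 26 tested genes with a run had medians of 0.16, 0.46 and 1.02 in Qk-KO replicates 1, 2 and 3, and the 33 without had 0.12, 0.52 and 1.11. Of these 26 and 33 genes, 5 and 8 were called higher, where 13.8% of all features were. The genes with and without a run thus had similar differences in each library, a comparison that was not tested.

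Ribosomal components whose symbols lie outside the rule had similar medians. All 5 genes of this list lay above every WT library in Qk-KO replicates 2 and 3, against 40.0% and 41.2% of all features. The order replicate 1 below 2 below 3 held in 3 of 5, against 27.0% of all features. Fau, which encodes a ubiquitin-like fusion of a ribosomal protein, had a change of 0.81 ± 0.27 (adjusted p = 0.0570). Gnb2l1, the scaffold protein Rack1 of the small subunit, had values of 10.83, 10.99 and 11.04 in WT against 10.90, 11.56 and 12.18 in Qk-KO (0.59 ± 0.28, adjusted p = 0.147). None of the 5 was called by limma, where 13.8% of all features were called higher. The median of the 5 was 0.14, 0.60 and 1.18 in Qk-KO replicates 1, 2 and 3. Rps3a1, whose symbol ends in a digit and so escapes the rule, rose by 0.75 ± 0.21 (adjusted p = 0.0304), with values of 11.09, 11.15 and 11.12 in WT against 11.40, 11.91 and 12.31 in Qk-KO.

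Rows named as pseudogenes of ribosomal proteins, which are processed copies of their messages, were lower in level and had medians in the same order of libraries. Of 270 such rows 95 had no read and 55 were tested. Of these 4 rose (7.27%) and 0 fell, against 13.8% of all features called higher and 14.8% lower. The share called higher was thus below that of all features. In Qk-KO replicate 3, 51 of the 55 were highest, against 23.1% of all features. The medians were 0.09, 0.27 and 0.66 in Qk-KO replicates 1, 2 and 3. The pseudogenes Rpsa-ps10 (1.07), Rps6-ps4 (0.67) and Rpl10-ps1 (0.87) rose, beside changes of 1.04, 0.69 and 0.96 for Rpsa, Rps6 and Rpl10. Reads from such near-identical copies cannot be told apart with certainty, and how reads with several positions were counted is not given in the sources used here.

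Translation factors, many of which also have TOP messages, rose in part. Of 21 genes 7 rose (33.3%) and 0 fell, against 13.8% of all features called higher and 14.8% lower. The median change was 0.39. Btf3, a factor of nascent chains, rose by 0.74 ± 0.13 (adjusted p = 0.00429) and was called in Qk-KO replicate 1 alone (adjusted p = 0.0477). Npm1, a nucleolar chaperone, rose by 0.60 ± 0.12 and Eif3l, a subunit of the initiation factor eIF3, by 0.57 ± 0.13 (adjusted p = 0.00947 and 0.0137). Eef1a1, the elongation factor that brings aminoacyl-tRNA to the ribosome, rose by 0.83 ± 0.26 (adjusted p = 0.0450), with values of 14.69, 14.87 and 14.79 in WT against 15.12, 15.63 and 16.09 in Qk-KO, ordered like the ribosomal protein genes. Pabpc1, the poly(A)-binding protein and itself a TOP message, had its lowest values in Qk-KO replicates 2 and 3 (10.60 and 11.13, against 11.27 to 11.47 in WT), and was not called (-0.21 ± 0.24, adjusted p = 0.528). The list's medians of 0.20, 0.33 and 0.56 in Qk-KO replicates 1, 2 and 3 thus had a smaller spread than those of the ribosomal protein genes. Eef1a1 and Pabpc1 were picked after their values were seen.

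For genes that build ribosomes, the list medians differed less between the Qk-KO libraries. Of 63 assembly factors 15 rose (23.8%) and 1, the remodelling ATPase Mdn1, fell, against 13.8% of all features called higher and 14.8% lower. The medians of the assembly factors were 0.18, 0.25 and 0.20 in Qk-KO replicates 1, 2 and 3. Single assembly factors differed widely, from -0.43 to 0.87, from -1 to 0.89 and from -1.28 to 0.98 in these libraries. Pes1, a processing factor of the large subunit, rose by 0.74 ± 0.14 (adjusted p = 0.00591), and the nucleolar GTPase gene Gnl3l by 0.71 ± 0.13 (adjusted p = 0.00628), with values of 10.78, 10.99 and 10.81 in WT against 11.73, 11.64 and 11.35 in Qk-KO, highest in replicate 1. Imp3, of the small subunit processome, rose by 0.69 ± 0.13. Of 17 genes of ribosomal RNA transcription 4 rose (23.5%) and 0 fell. Polr1a, the largest subunit of RNA polymerase I, rose by 0.66 ± 0.10 (adjusted p = 0.00241), with values of 10.30, 10.24 and 10.32 in WT against 10.89, 10.94 and 10.99 in Qk-KO. It was also called in Qk-KO replicate 1 alone (adjusted p = 0.0243). The initiation factor gene Rrn3 and Polr1d rose by 0.65 and 0.55. Mitochondrial ribosomal protein genes serve the separate ribosomes of mitochondria. Of 77 such genes 14 rose (18.2%), close to the 13.8% of all features, and 0 fell. Mrpl39 (0.68), Mrpl20 (0.73) and Mrps7 (0.76) were among those that rose. The medians of the 77 genes were 0.11, 0.35 and 0.38 in Qk-KO replicates 1, 2 and 3.

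Of 10 tested host genes of small nucleolar RNAs, several of which are non-coding TOP transcripts, 2 rose (20%) and 1 fell. Of all features 13.8% were called higher and 14.8% lower. Snhg5 and Gas5 rose by 0.68 ± 0.15 and 0.52 ± 0.14 (adjusted p = 0.0132 and 0.0250) and Snhg18 fell by 0.87 (adjusted p = 0.0178). Among 16 regulators of TOP messages and of mTORC1, Larp4b rose by 0.77 ± 0.11 (adjusted p = 0.00203) and Eif4ebp2, an inhibitor of cap-dependent initiation, fell by 1.04 (adjusted p = 0.0207). Eif4ebp2 had values of 8.90, 8.64 and 8.74 in WT against 8.36, 7.43 and 7.39 in Qk-KO. In Qk-KO replicate 1 alone its change was -0.40 and not called (adjusted p = 0.208), and the call was lost without any one WT library (adjusted p from 0.0508 to 0.0778) and without Qk-KO replicate 2 (0.0756). With library size alone as the scaling, Snhg18 and Eif4ebp2 were at 0.19 and 0.02, where the median change of all features was 1.09. The 16 regulators had a median difference from the WT mean of -0.10 in Qk-KO replicate 1, against 0.02 over all features. In the same library the median was 0.20 for translation factors and 0.18 for assembly factors. For genes of ribosomal RNA transcription it was 0.14 and for mitochondrial ribosomal protein genes 0.11. Mtor, Rptor, Tsc1 and Tsc2 had changes between -0.12 and 0.04 and were not called. Larp1, the repressor of TOP messages, had a change of -0.29 ± 0.11 (adjusted p = 0.0829).

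**Figure D3:**
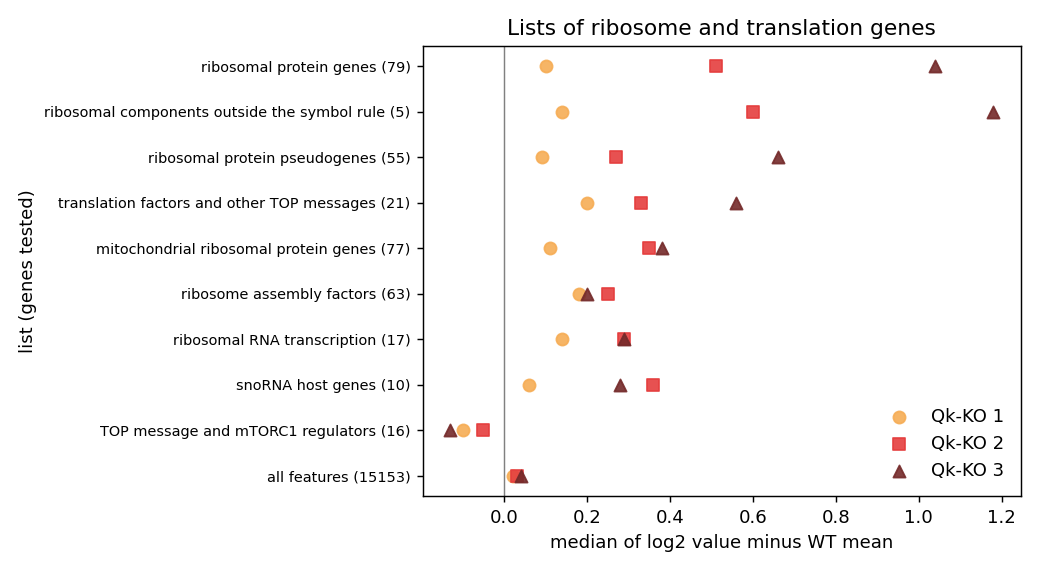
Median over the tested genes of each list of the log2 value minus the WT mean (horizontal axis), 1 symbol per Qk-KO library, with the number of genes tested in brackets. The ribosomal protein genes spread from 0.10 to 1.04 over the 3 libraries, while the assembly factors lie between 0.18 and 0.25 and all features between 0.02 and 0.04.

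Markers of other cells differed between the same libraries. In bulk samples, fewer cells of a type and less RNA per cell cannot be told apart. Microglia markers were higher in Qk-KO, with 7 of 14 features rising and 0 falling (the list has 13 genes, of which Itgam has 2 features). Their summed signal was 0.0431% to 0.0716% of that outside ribosomal RNA in WT and 0.106%, 0.133% and 0.486% in Qk-KO replicates 1, 2 and 3, so that replicate 3 stood highest here as well. Trem2, Ctss and C1qa rose by 2.74, 2.42 and 2.44. Astrocyte markers were lower, with 15 of 16 falling, and their summed signal was 0.895% to 1.03% in WT and 0.146% to 0.212% in Qk-KO. The astrocyte gene not called was Gfap (0.81, adjusted p = 0.0526). All 10 endothelial markers fell and 6 of 8 mural cell markers did, although with library size alone Kdr and Vtn turned to 0.05 and 0.23, within the shift of all features. Of 12 oligodendrocyte markers 6 rose and 0 fell, and their summed signal was 2.85% to 3.49% in WT and 3.53% to 4.55% in Qk-KO. Neuron markers had 2 of 12 rising, precursor markers 2 of 7 falling, and none of 5 erythrocyte markers was called (median -1.13). Over all features 13.8% were called higher and 14.8% lower. No marker on these lists was at 0 in all libraries. Astrocyte, endothelial and mural cell sums lay below the WT range in all 3 Qk-KO libraries, and microglia sums lay above it in all 3. The part of other cell types in the ribosomal protein values was not tested.

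**Figure D4:**
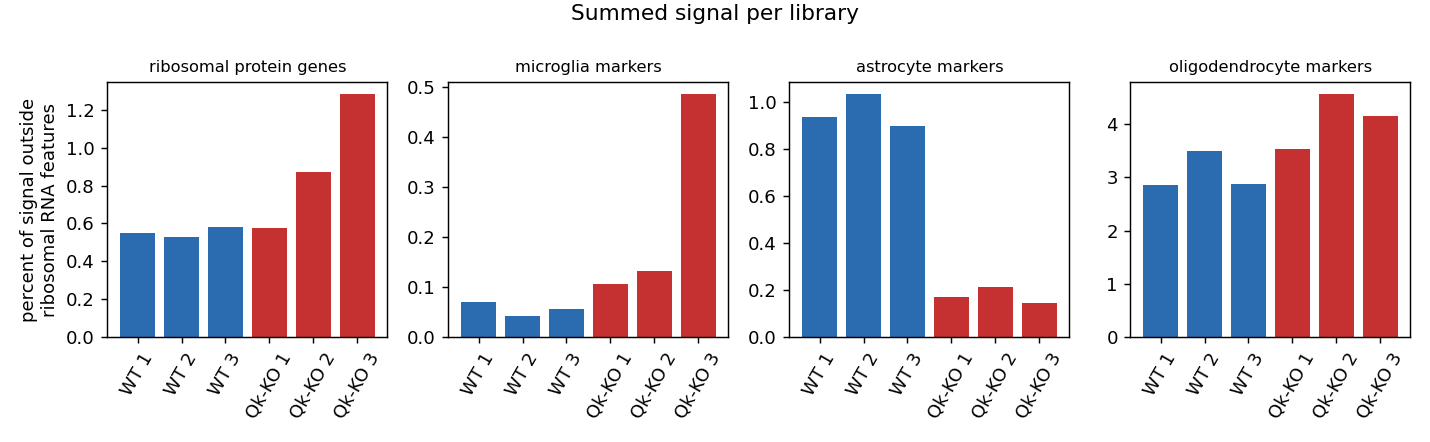
Summed signal of 4 gene lists as percent of the signal outside ribosomal RNA features (vertical axes, each starting at 0) in the 6 libraries, WT blue and Qk-KO red. Ribosomal protein genes reach 1.28% and microglia markers 0.486% in Qk-KO replicate 3, while astrocyte markers are at 0.212% or less in every Qk-KO library.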

How the data were processed

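FastQC, featureCounts, DESeq2, TopHat2 2.0.14 and the build mm10 are named in the submitters' processing notes. The sources used here give no annotation, strandedness or rule for multiply mapped reads. The deposited log2 values per library were scaled by the authors and behave as DESeq2 regularized values, so differences of genes with few reads are understated. A signal, the mean normalized count over the 6 libraries, was deposited beside them. For its own comparison the table deposited by the authors holds log2 fold changes, their errors, a Wald score and p-values.

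Since the values are not counts, a linear model with genotype as its only term was fitted in limma 3.58.1 (R 4.3.3), with its variance prior following the mean level, to all 6 libraries, 3 per group. No pseudocount was added. The test covered features whose mean normalized count reached 20. All adjusted p-values are limma's unless credited to the authors' table. Members, gene lists and tests were chosen with earlier results of these data known. Size factors came from the steps that 1 read makes in the mean normalized count; reads per gene are back-transformed values times these factors and are approximate. Ribosomal RNA features are Gm42418, Gm26917, mt-Rnr1 and mt-Rnr2. Positions and lengths are from GENCODE M21, which held 46488 of the 46983 identifiers and all 82 members. Lengths are of the principal transcript, the longest where several ranked alike.

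Named genes are the 8 called members with the largest rise and no overlap between groups, the 5 most abundant, members with a known role, restricted paralogs, and up to 3 called genes per other list by adjusted p (the 2 most abundant where fewer than 2 were called); not all of the last are printed. No member was called lower.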

Additional observations from a re-analysis of the deposited data

How the results depend on the processing

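The direction of the median change of the ribosomal protein genes was kept under every setting tried, from 0.10 with Qk-KO replicate 1 alone against WT or with library type as a term to 1.60 with library size alone, which shifted the median of all features to 1.09 and under which 97.3% of all calls were rises, against 48.2% with the deposited scaling. No setting called a member lower. The count of members called higher, 14, was 1 with library type as a term, 1 with Qk-KO replicate 1 alone, 3 with no filter on low values, 7 when scaled to the total outside ribosomal RNA, 44 with sample quality weights, 45 in the authors' deposited table, 46 with the sample number series as a term and 65 with library size alone. Leaving out 1 library gave 1 to 71. The member count was 15 with length and GC trends removed (median 0.42, with 57.4% of all calls rises). It was 16 at a minimum of 100, 11 with no trend and 15 with Rps3a1, chosen after seeing the data. The main fit called 17.7% of tested members and 2087 of 15153 features higher. Scaled to the total outside ribosomal RNA, these were 8.86% and 1920, and with sample quality weights 55.7% and 2539. With length and GC trends removed they were 19% and 2819, and with no trend 13.9% and 1966. With no filter they were 3.7% and 1534, and at a minimum of 100 they were 20.5% and 2093. The 12 calls other than Rpsa and Rpl36al were each lost without each WT library, with adjusted p from 0.0554 to 0.127. Over all features, 4330 were called, 2258 with library type as a term, 2355 with Qk-KO replicate 1 alone, 2447 with library size alone and 2370 to 5633 without 1 library. With the replicate number as a block 25 members (31.6%) and 2091 of all features were called higher. Same-numbered libraries correlated by 0.10, 0.0046 and 0.082 in their deviations from the group means, and not every library correlated best with its own number, so the numbers were not taken as pairs. The ratio of summed signal was 3.91 with ribosomal RNA in the denominator (exact permutation p = 0.1, the smallest possible) and 1.31 to 1.94 without 1 library. Of the genes named by rule, Snhg18 (0.19), Eif4ebp2 (0.02), Kdr (0.05) and Vtn (0.23) turned from falls under library size alone, within its shift of all features. The cause of these differences was not tested. Outside Rps27rt, each tested member had at least 90.9 estimated reads in every library. The part of depth in these values was not tested.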
